A study of Mus musculus with 40 samples.

Results

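Regulators of G protein signalling (RGS proteins) were followed as 10 genes, Rgs2, Rgs4, Rgs7, Rgs8, Rgs10, Rgs14, Rgs16, Rgs17, Rgs20 and Rgs7bp, out of the 32531 gene symbols counted in each library. They were chosen by name, with earlier results of these data known: 9 genes of the family, Rgs9 left aside, and Rgs7bp, the gene of an RGS-binding protein. A further 11 family genes are given at the end. Ribosome-bound RNA was purified by translating ribosome affinity purification (TRAP) from accumbens nucleus tissue. The adult mice belonged to the Drd1-TRAP CP73 line, where regulatory sequence of the D1 dopamine receptor gene drives Rpl10a, a ribosomal protein, fused to EGFP. The 40 libraries formed 6 groups, and 39 were used: escalating cocaine at about 1 month after self-administration (n = 4), nonescalating cocaine at 1 month (n = 10) and saline at 1 month (n = 5), then escalating cocaine at 24 hours (n = 5), nonescalating cocaine at 24 hours (n = 9) and saline at 24 hours (n = 6).

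All mice, saline controls included, carried the transgene on a background that began as FVB/N-Swiss Webster and was crossed for at least 9 generations to C57BL/6. All had gone through long-access intravenous self-administration of cocaine or saline, and the cocaine mice were grouped by whether intake escalated. Only immunopurified RNA was analysed, with no total RNA input. Replicate numbers restart inside both nonescalating groups, at library 1582 at 24 hours and at library 1601 at 1 month. Each nonescalating group was analysed as a whole, and whether its runs of numbers differ was not tested. The labels do not say how many animals stand behind a library or whether libraries came from separate animals, so n counts libraries and p-values measure the spread between them, which may be in part technical.

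G proteins carry the signal of receptors such as the D1 receptor, and their alpha subunits switch themselves off by hydrolysing GTP. RGS proteins speed that step, mostly on subunits of the Gi/o, Gq and Gz classes, and so shorten signals from muscarinic, opioid, adenosine, glutamate and dopamine receptors. The medium spiny neurons that project out of the striatum are known for high levels of several RGS proteins, and the members fall into families: Rgs2, Rgs4, Rgs8 and Rgs16 are small proteins that are little more than the RGS domain, Rgs7 works in a complex with the G beta subunit Gnb5 that Rgs7bp anchors at the membrane, Rgs17 and Rgs20 prefer Gz, and Rgs10 and Rgs14 act on Gi subunits.

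Promoter sequence of 4 members is shown because they bracket the range of levels, Rgs4 and Rgs2 at the top and Rgs16 at the bottom, and because Rgs17 had the smallest p of the members, one that did not pass adjustment, for escalating over nonescalating at 24 hours. The RefSeq entries (GRCm38.p6) run from 250 bases before to 50 bases after the annotated start, 5′ to 3′ on the gene's strand. Capitals mark every match, on either strand, to TGACG, the core of the cAMP response element. They also mark the TATA box, searched as TATAAA on both strands. The last motif marked is the CCAAT box, again on both strands. The windows are chr1:169747593-169747892 (minus strand) for Rgs4, chr1:144004100-144004399 (minus strand) for Rgs2, chr10:5922351-5922650 (minus strand) for Rgs17 and chr1:153740103-153740402 (plus strand) for Rgs16.
Rgs4: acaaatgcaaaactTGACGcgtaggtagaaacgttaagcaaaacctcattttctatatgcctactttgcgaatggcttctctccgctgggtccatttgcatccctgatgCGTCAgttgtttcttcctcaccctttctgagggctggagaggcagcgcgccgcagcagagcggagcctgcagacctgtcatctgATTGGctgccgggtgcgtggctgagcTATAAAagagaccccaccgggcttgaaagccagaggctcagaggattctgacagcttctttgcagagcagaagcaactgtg
Rgs2: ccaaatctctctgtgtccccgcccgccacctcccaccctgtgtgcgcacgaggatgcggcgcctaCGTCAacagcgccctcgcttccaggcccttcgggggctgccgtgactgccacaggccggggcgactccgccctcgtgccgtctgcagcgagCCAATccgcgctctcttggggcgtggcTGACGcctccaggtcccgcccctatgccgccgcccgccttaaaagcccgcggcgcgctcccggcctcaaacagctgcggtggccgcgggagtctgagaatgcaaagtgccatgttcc
Rgs17: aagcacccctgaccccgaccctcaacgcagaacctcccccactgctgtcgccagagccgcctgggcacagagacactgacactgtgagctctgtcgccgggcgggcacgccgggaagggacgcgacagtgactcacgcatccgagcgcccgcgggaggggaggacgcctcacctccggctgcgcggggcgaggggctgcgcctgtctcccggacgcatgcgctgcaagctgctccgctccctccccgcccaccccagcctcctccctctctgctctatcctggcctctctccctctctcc
Rgs16: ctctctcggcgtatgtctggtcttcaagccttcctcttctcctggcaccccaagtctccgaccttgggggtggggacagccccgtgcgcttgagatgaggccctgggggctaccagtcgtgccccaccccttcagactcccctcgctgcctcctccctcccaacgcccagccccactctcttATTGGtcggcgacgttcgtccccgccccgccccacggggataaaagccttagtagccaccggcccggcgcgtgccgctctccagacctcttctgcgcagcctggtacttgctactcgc
The Rgs4 and Rgs2 windows each held 2 matches to TGACG and 1 to CCAAT, and only the Rgs4 window of these 4 held TATAAA. The Rgs16 window held 1 match to CCAAT, and the Rgs17 window held none of these letters. G and C made up 53% of the Rgs4 window, 70% of Rgs2, 71% of Rgs17 and 66% of Rgs16. Over all 32851 promoter entries of that table, TGACG was present in 20.8%, TATAAA in 13.6% and CCAAT in 37.4%. The full element TGACGTCA, present in 1.79% of entries, was in none of the 10 entries of the 8 members that matched; Rgs14 and Rgs20 had no entry. A match is a description of the letters and not a bound site.

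The 39 libraries held 3772630 to 33932469 counts. The fortieth, nonescalating 1-month library 1595, held 5168 counts, 13 of them in the 10 members, and was left out. Summed D1 medium spiny neuron markers (7 of 7 listed) were at 1357 to 2507 CPM (counts scaled to each library's total) in 36 libraries, above the D2 markers (6 of 6) at 413 to 1093 CPM. Libraries are named by the number in their label, and 3 of the 24-hour libraries stood apart. Saline library 1573 had 322 CPM of D1 markers, and 3235 CPM of astrocyte, 1631 CPM of oligodendrocyte and 2105 CPM of vascular markers. Saline library 1574 had 2265 CPM of astrocyte, 2211 CPM of vascular and 451 CPM of cortical glutamatergic neuron markers. Nonescalating library 1582 had 1307 CPM of astrocyte and 476 CPM of cortical glutamatergic markers. The astrocyte sums rested largely on Slc1a2, at 2895 CPM in library 1573, 1487 CPM in 1574 and 1214 CPM in 1582. In library 1582 Gja1, Aldh1l1 and Sox9 were at 0 CPM, and Neurod2 gave 405 CPM of its cortical sum. The 36 other libraries ranged over 254 to 1106 CPM (astrocyte), 94.0 to 696 CPM (oligodendrocyte), 55.5 to 2220 CPM (vascular) and 1.42 to 345 CPM (cortical glutamatergic). In this bulk RNA, fewer cells of a type cannot be told apart from less RNA per cell, and values without these libraries are given where they move a result. Without them the direction of the log2 fold change at 24 hours turned for 4 of 10 members in escalating over saline, for 5 of 10 in nonescalating over saline and for 0 of 10 in escalating over nonescalating.

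Per length, the members spanned a wide range in these libraries. RPKM here is CPM per kilobase of the gene's exons (GENCODE vM21). Median RPKM over the 39 libraries was 108 for Rgs4, 83.4 for Rgs2, 60.8 for Rgs7bp, 45.5 for Rgs8, 29.0 for Rgs20, 28.0 for Rgs17, 17.9 for Rgs7, 9.04 for Rgs10, 7.20 for Rgs14 and 2.46 for Rgs16. Rgs20 and Rgs17 could not be ordered, since Rgs20 was the higher in 21 of 39 libraries. The other neighbours kept their order in 29 (Rgs4 over Rgs2, Rgs10 over Rgs14) to 37 (Rgs8 over Rgs20) of 39 libraries. For scale, the G alpha subunit of D1 receptor signalling, Gnal, had a median of 233 RPKM, the Gi/o subunits Gnai1 and Gnao1 135 and 101 RPKM, the Gq subunit Gnaq 47.9 RPKM, and the Gz subunit Gnaz 27.6 RPKM. Rgs4 alone made up 17.7% to 33.8% of the members' summed RPKM in a library, with a median of 27.3%.

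**Figure D1:**
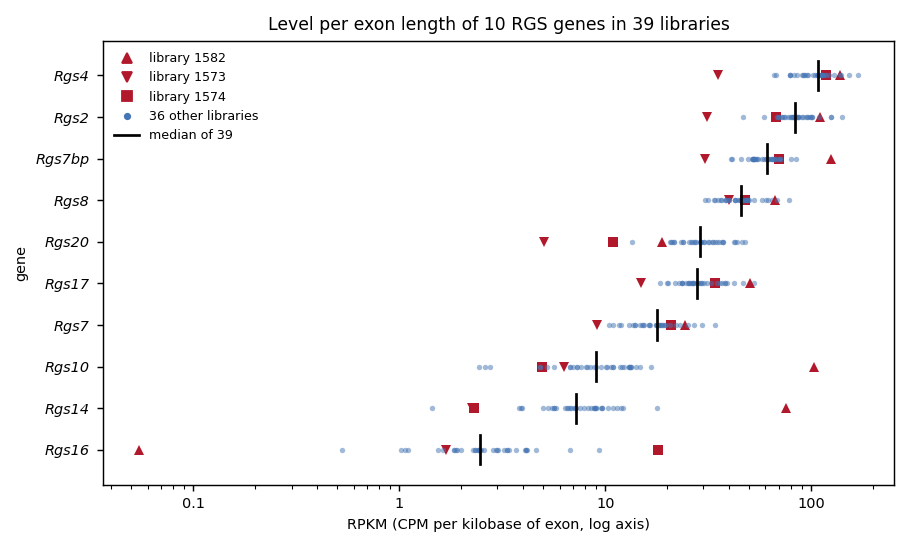
RPKM on a log axis for each of the 10 genes in 39 libraries, 1 point a library, ordered by median (black bar), with libraries 1582, 1573 and 1574 in red. Medians run from 2.46 (Rgs16) to 108 (Rgs4), and library 1582 lies far above the other libraries for Rgs10 and Rgs14 and far below them for Rgs16.

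None of the 10 genes differed between groups at an adjusted p under 0.05, in any of 12 comparisons (edgeR quasi-likelihood test, Benjamini-Hochberg adjustment over 14137 genes at 24 hours, 14181 at 1 month and 15579 over both times). All 10 passed the filter on low counts in each fit. In all 12 comparisons edgeR called 0% of all genes tested at that threshold, limma voom also called 0 genes, and DESeq2 called 0 of the 10 members and 0 to 583 of all genes. At an unadjusted p under 0.05 the members gave 6 of 120 tests, and each is given below beside the share of all genes tested that reached it. Unless an adjusted p is printed with it, a p below is unadjusted and comes from edgeR.

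**Figure D2:**
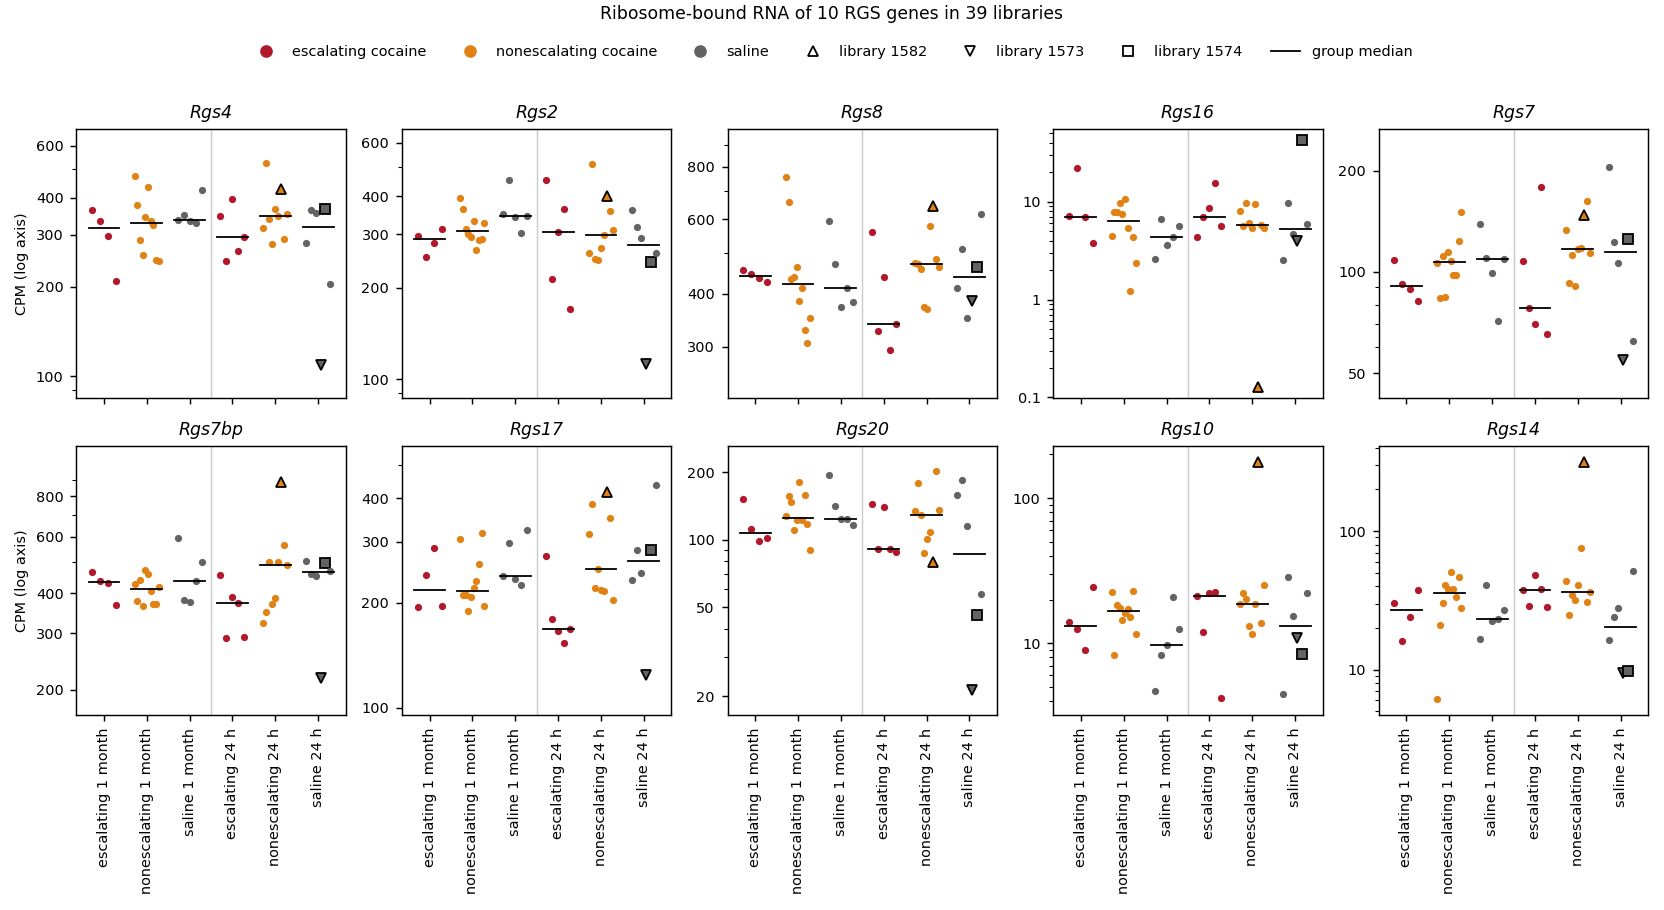
CPM on a log axis for the 10 genes, 1 panel a gene, 1 point a library and a black bar for the group median; escalating, nonescalating and saline groups run from left to right, at 1 month and then at 24 hours, and black-edged symbols mark libraries 1582, 1573 and 1574. The groups overlap in every panel, and 6 of the 8 values that stood apart from their group by Dixon's test belong to the 3 marked libraries.

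Of the small RGS proteins, Rgs4 and Rgs2 had the highest levels per length of the 10 members and Rgs16 the lowest. Rgs4 (chr1:169741477-169747642, minus strand), which acts on Gi/o and Gq and limits muscarinic and glutamate receptor signals in striatum, averaged 301 ± 66.6 CPM in escalating (SD, n = 4), 333 ± 78.8 in nonescalating (n = 10) and 356 ± 39.9 in saline libraries (n = 5) at 1 month. At 24 hours it averaged 310 ± 62.7 in escalating (n = 5), 361 ± 75.8 in nonescalating (n = 9) and 280 ± 105 in saline libraries (n = 6). All 6 groups overlapped, the 24-hour saline minimum of 109 CPM was library 1573, and the log2 fold changes between groups of 1 time lay between -0.23 and 0.36 with no p under 0.115. The 0.36, for nonescalating over saline at 24 hours, was 0.22 ± 0.19 without libraries 1573, 1574 and 1582. Rgs8 (chr1:153653025-153700323, plus strand), a brain-enriched regulator of Gi/o, stood at 456, 445, 435 and 427 CPM in escalating libraries at 1 month, inside the 305 to 755 CPM of nonescalating and 373 to 595 CPM of saline libraries. Rgs8 was at 433 to 755 CPM in nonescalating libraries 1596 to 1600 and at 305 to 412 CPM in libraries 1601 to 1605, whose replicate numbers restart. Its log2 fold changes within a time lay between -0.29 and 0.06, with no p under 0.144, and the 0.06, for nonescalating over saline at 24 hours, was -0.04 without the 3 libraries.

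Rgs2 (chr1:143999338-144004161, minus strand) prefers Gq, can also bind adenylyl cyclase, and is known as a gene induced by receptor stimulation. At 1 month it was at 297, 252, 281 and 311 CPM in escalating libraries, at 266, 307 and 395 CPM (lowest, median, highest of 10) in nonescalating libraries and at 350, 454, 343, 302 and 346 CPM in saline libraries. Of the 4 escalating libraries, 3 lay below every saline library, and the groups overlapped through saline library 1593 at 302 CPM. Each escalating library also held fewer counts in all than every saline library of that time, and the part of depth was not tested. The log2 fold change of escalating over saline was -0.32 ± 0.14 (SE; p = 0.0334, adjusted p = 1.00), where 4.36% of all genes tested had a p under 0.05. Leaving out saline library 1591 gave -0.23 (p = 0.118), and leaving out escalating library 1607 gave -0.26 (p = 0.106). Nonescalating over saline gave -0.17 ± 0.11 (p = 0.148) and escalating over nonescalating -0.15 ± 0.13 (p = 0.250).

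At 24 hours Rgs2 was at 454, 214, 305, 364 and 170 CPM in escalating libraries, at 247, 299 and 512 CPM (lowest, median, highest of 9) in nonescalating and at 113, 276 and 361 CPM (of 6) in saline libraries. The groups overlapped throughout, and the lowest saline value was library 1573. In saline mice 4 of the 6 24-hour libraries lay below every 1-month library and the groups overlapped, and 1 month over 24 hours gave a log2 fold change of 0.44 ± 0.22 (p = 0.0493, adjusted p = 0.383), where 13% of all genes tested had a p under 0.05. The p stayed under 0.05 in 18 of 39 fits that each left out 1 library. Without library 1573 the log2 fold change was 0.27 (p = 0.177), and without 1573, 1574 and 1582 it was 0.22 ± 0.20 (p = 0.275). The sequencing sample numbers in the labels restart between the time points, so time and the series in which libraries were made cannot be told apart.

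Rgs16 (chr1:153740349-153745468, plus strand), an inducible regulator of Gi/o and Gq, was the lowest member, with 1 to 257 counts a library, and the most variable, with a pooled within-group SD of 0.74 on the log2 CPM scale over 36 libraries. At 1 month it was at 7.10, 21.9, 7.0 and 3.81 CPM in escalating libraries, 1.23, 6.42 and 10.7 CPM (lowest, median, highest) in nonescalating and 2.58, 6.69, 3.62, 4.33 and 5.62 CPM in saline libraries. Escalating library 1607 was above all others of that time, and without it the 3 other escalating libraries lay inside the nonescalating range. Escalating over nonescalating at 1 month gave a log2 fold change of 0.69 ± 0.53 (p = 0.201, adjusted p = 0.999), the smallest p of a member in a comparison where 2.31% of genes had a p under 0.05, and -0.04 (p = 0.950) without library 1607. Escalating over saline at 1 month gave 1.12 ± 0.61 (p = 0.0786, adjusted p = 1.00), and 0.39 ± 0.66 (p = 0.554) without library 1607. At 24 hours Rgs16 was at 4.39, 6.90, 8.59, 15.7 and 5.62 CPM in escalating libraries. It was at 5.44 to 9.68 CPM in 8 nonescalating libraries with 0.127 CPM (1 count) in library 1582, and at 2.51 to 9.66 CPM in 5 saline libraries with 42.4 CPM in library 1574. At 24 hours its log2 fold changes over saline were -0.49 ± 0.80 (escalating) and -0.91 ± 0.68 (nonescalating) with all libraries, and 0.55 ± 0.56 and 0.29 ± 0.51 in that order without libraries 1573, 1574 and 1582. Gm28513, an antisense gene model on the opposite strand that is not among the counted symbols, shares 236 exon bases (10.1%) with Rgs16, and whether reads were counted by strand is not given in the sources used here.

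Rgs7 (chr1:175059087-175492500, minus strand), whose protein regulates Gi/o in complex with Gnb5, averaged 93.0 ± 11.3 CPM in escalating, 108 ± 19.8 in nonescalating and 106 ± 24.2 in saline libraries at 1 month (SD; n = 4, 10 and 5). At 24 hours the averages were 100 ± 46.9 in escalating, 121 ± 23.6 in nonescalating and 113 ± 54.0 in saline libraries (n = 5, 9 and 6). The ranges overlapped at both times, and the log2 fold changes within a time lay between -0.28 and 0.10 with no p under 0.237, and the 0.10, for nonescalating over saline at 24 hours, was -0.08 without libraries 1573, 1574 and 1582. Its partners were well represented: Gnb5 had a median of 46.8 RPKM (25.2 to 61.3), and Gpr158, an orphan receptor that recruits Rgs7 to the membrane, 49.2 RPKM (31.9 to 65.0). Rgs9bp, the anchor known from retina, was at 0 counts in 34 of 39 libraries.

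Rgs7bp (chr13:104945904-105054930, minus strand), the palmitoylated anchor of that complex, had a pooled within-group SD of 0.33 on the log2 CPM scale over 39 libraries, where Rgs8 had 0.32, and of 0.22 over 36 libraries without 1573, 1574 and 1582. The median over 8582 genes with a mean of at least 10 CPM was 0.66 over 39 and 0.50 over 36 libraries. Those genes were not matched to Rgs7bp by level. The members with the lowest levels had larger SDs over 36 libraries, at 0.69 (Rgs10), 0.63 (Rgs14) and 0.74 (Rgs16). At 1 month Rgs7bp was at 466.4, 437, 430 and 367 CPM in escalating, 363 to 472 CPM in nonescalating and 375 to 595 CPM in saline libraries. At 24 hours it was at 457, 289, 389, 372 and 292 CPM in escalating libraries, 322 to 566 CPM in 8 nonescalating libraries with 885 CPM in library 1582, and 452 to 502 CPM in 5 saline libraries with 217 CPM in library 1573. Of the 5 escalating libraries, 4 lay below those 5 saline libraries, and escalating library 1585 and saline library 1573 made the groups overlap. The log2 fold change of escalating over saline at 24 hours was -0.27 ± 0.25 (p = 0.289), and -0.38 ± 0.18 (p = 0.0417, adjusted p = 0.531) without libraries 1573, 1574 and 1582. Escalating over nonescalating was -0.43 ± 0.23 (p = 0.0746) with all libraries and -0.26 ± 0.15 (p = 0.0970) without the 3, and nonescalating over saline was 0.16 ± 0.22 with all libraries and -0.12 ± 0.16 without them.

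Rgs17 (chr10:5825663-5922400, minus strand), a regulator of Gz and Gi/o that associates with opioid receptors, gave the smallest p of a member in both escalating comparisons at 24 hours. It was at 272, 180, 166, 154 and 168 CPM in escalating libraries, 205, 250 and 417 CPM (lowest, median, highest of 9) in nonescalating libraries and 124, 264 and 436 CPM (of 6) in saline libraries. Of the 5 escalating libraries, 4 lay below all 9 nonescalating libraries and below 5 of 6 saline libraries. The groups overlapped through escalating library 1585 at 272 CPM and saline library 1573 at 124 CPM.

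Escalating over nonescalating at 24 hours gave a log2 fold change of -0.61 ± 0.25 for Rgs17 (p = 0.0232, adjusted p = 1.00), where 3.15% of all genes tested had a p under 0.05. Leaving out 1 library at a time gave -0.78 (without 1585) to -0.52 (without 1582), with p between 0.00765 and 0.0598, and leaving out libraries 1573, 1574 and 1582 gave -0.51 ± 0.20 (p = 0.0163, adjusted p = 0.619). Escalating over saline gave -0.51 ± 0.27 (p = 0.0691, adjusted p = 0.956), where 5.16% of genes had a p under 0.05, -0.32 (p = 0.236) without saline library 1575, and -0.65 ± 0.23 (p = 0.00832, adjusted p = 0.439) without the 3 libraries. Nonescalating over saline gave 0.10 ± 0.23 (p = 0.683), and -0.14 ± 0.21 (p = 0.492) without the 3 libraries. At 1 month Rgs17 was at 195, 241, 289 and 196 CPM in escalating, 189 to 318 CPM in nonescalating and 225 to 324 CPM in saline libraries, which overlapped, and escalating over nonescalating was -0.03 ± 0.15 (p = 0.856).

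The test of the difference between the times did not pass either. The log2 fold change of escalating over nonescalating was 0.58 ± 0.30 higher at 1 month than at 24 hours for Rgs17 (p = 0.0598, adjusted p = 1.00), the smallest p of a member where 2.30% of genes had a p under 0.05. That change was 0.74 (p = 0.0180) without library 1585 and 0.44 without 1-month library 1608. Over 39 fits that each left out 1 library, its p lay between 0.0180 and 0.165 and was under 0.05 in 10. Within the escalating group 1 month over 24 hours gave 0.29 ± 0.25 (p = 0.245), again the smallest p of a member, where 1.72% of genes had a p under 0.05, with 0.16 without 1-month library 1608 and 0.45 without 24-hour library 1585. Markers of other cell types are given beside these values. At 24 hours, summed interneuron markers (8 of 8) were at 10.6 to 35.3 CPM in escalating, 29.6 to 152 CPM in nonescalating and 11.7 to 288 CPM in saline libraries. Summed astrocyte markers (9 of 9) were at 254 to 457 CPM in escalating, 302 to 1307 CPM in nonescalating and 385 to 3235 CPM in saline libraries, with at most 3 markers at 0 in a library. Summed cortical glutamatergic markers (6 of 6) had medians of 9.89 CPM in escalating (6.20 to 52.4), 150 CPM in nonescalating (1.42 to 476) and 48.0 CPM in saline libraries (6.75 to 451). Summed vascular markers (10 of 10) had medians of 658 CPM in escalating (243 to 2220, the highest in library 1589), 335 CPM in nonescalating (112 to 564) and 480 CPM in saline libraries (217 to 2211). The part of these markers in the Rgs17 values was not tested.

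Rgs20 (chr1:4909576-5070285, minus strand), the other Gz regulator, overlapped between all groups. At 24 hours it was at 145, 91.0, 140, 91.1 and 88.5 CPM in escalating libraries, 79.7, 128 and 202 CPM (lowest, median, highest) in nonescalating and 21.4, 86.1 and 185 CPM in saline libraries. The lowest saline values were those of library 1573 and of library 1574 at 46.2 CPM. At 1 month it averaged 116 ± 24.5 CPM in escalating, 133 ± 27.2 in nonescalating and 140 ± 32.1 in saline libraries (SD; n = 4, 10 and 5). Within a time its log2 fold changes lay between -0.26 and 0.40, with no p under 0.204. The 0.40, for nonescalating over saline at 24 hours, was 0.06 ± 0.26 without libraries 1573, 1574 and 1582, and escalating over saline was 0.19 ± 0.38 with all libraries and -0.21 ± 0.29 without the 3. Its exons share 127 bases with Atp6v1h on the opposite strand.

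**Figure D3:**
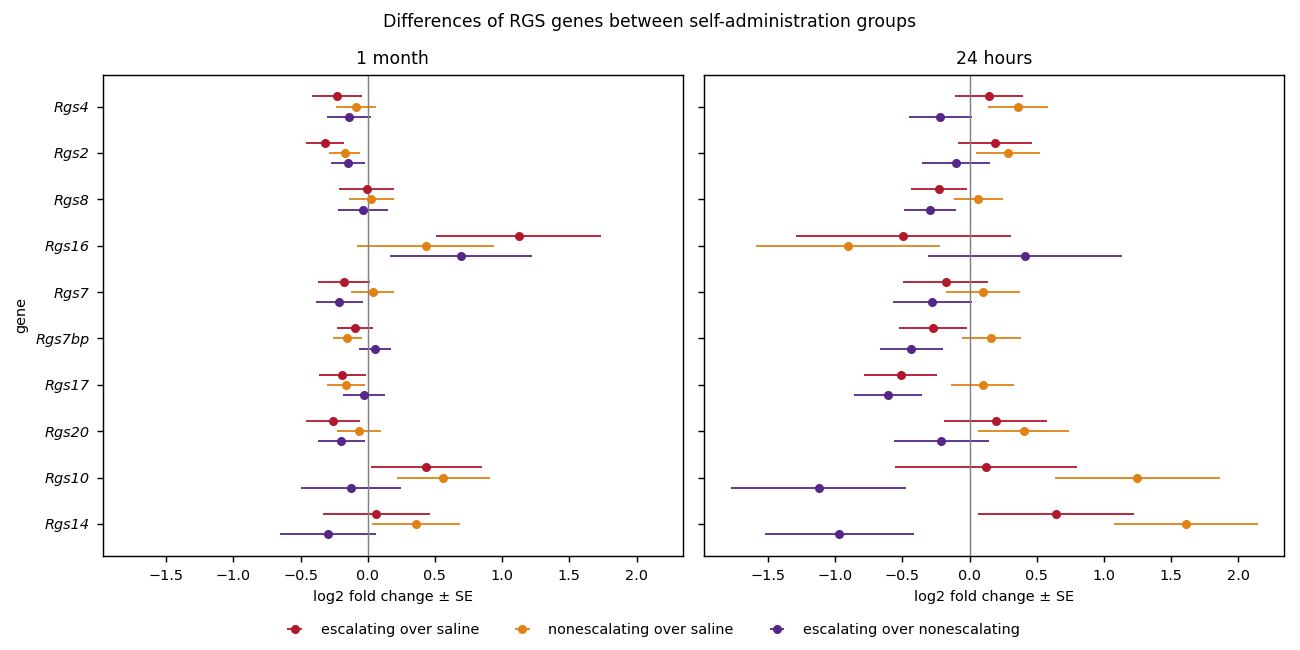
Log2 fold change ± SE (edgeR) of the 10 genes in the 3 comparisons within 1 month (left) and within 24 hours (right). At 24 hours Rgs17 lies at -0.61 for escalating over nonescalating and -0.51 for escalating over saline, and the widest bars are those of Rgs16, Rgs10 and Rgs14.

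Rgs14 (chr13:55369732-55384687, plus strand), a scaffold that joins an RGS domain to Ras-binding and G alpha-binding motifs and is best known from hippocampal area CA2, gave the smallest p of any member. At 24 hours it was at 37.3, 29.0, 48.5, 38.4 and 28.5 CPM in escalating libraries, 24.6, 36.3 and 318 CPM (lowest, median, highest of 9) in nonescalating and 9.52, 20.2 and 51.8 CPM (of 6) in saline libraries. The highest value was library 1582, the next nonescalating one was 75.7 CPM, and the lowest saline values were library 1573 and library 1574 at 9.73 CPM. The saline range overlapped both cocaine groups, with its highest value in library 1575. Nonescalating over saline gave a log2 fold change of 1.61 ± 0.54 (p = 0.00565, adjusted p = 0.261), where 9.97% of all genes tested had a p under 0.05. Without library 1582 it was 0.77 (p = 0.0474, adjusted p = 0.453), and without libraries 1573, 1574 and 1582 it was 0.41 ± 0.32 (p = 0.204), with 39.8 ± 15.7 CPM in 8 nonescalating and 30.0 ± 15.3 CPM in 4 saline libraries. Escalating over saline was 0.64 ± 0.58 (p = 0.28), and 0.29 ± 0.34 (p = 0.402) without the 3 libraries.

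Rgs10 (chr7:128373621-128418758, minus strand), a small Gi regulator that is abundant in microglia as well as in neurons, was also highest in library 1582. At 24 hours it was at 21.0, 12, 22.3, 22.5 and 4.16 CPM in escalating libraries, 11.6 to 25.2 CPM in 8 nonescalating libraries with 176 CPM in library 1582, and 4.47, 13.2 and 28.6 CPM (lowest, median, highest of 6) in saline libraries. All 3 groups overlapped. Escalating over nonescalating at 24 hours gave -1.12 for Rgs10 and -0.97 for Rgs14 with all libraries, and -0.12 for each without libraries 1573, 1574 and 1582. For Rgs10, nonescalating over saline gave a log2 fold change of 1.25 ± 0.61 (p = 0.0523, adjusted p = 0.503), and 0.02 ± 0.44 (p = 0.964) without libraries 1573, 1574 and 1582. Summed microglial markers (9 of 9 listed) were at 1.03 to 21.8 CPM in escalating, 1.27 to 14 CPM in nonescalating and 2.39 to 63.5 CPM in saline libraries at 24 hours. Library 1582 was the lowest nonescalating library in these markers, with 7 of 9 at 0, among them Cx3cr1, P2ry12, Tmem119 and Csf1r. Its cortical glutamatergic markers were the highest of the 39 libraries at 476 CPM, and their part in the Rgs10 and Rgs14 values was not tested.

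At 1 month Rgs14 averaged 26.9 ± 9.01 CPM in escalating, 33.3 ± 12.9 in nonescalating and 26.0 ± 9.00 in saline libraries, and Rgs10 averaged 14.9 ± 6.56 in escalating, 16.4 ± 4.50 in nonescalating and 11.2 ± 6.01 in saline libraries (SD; n = 4, 10 and 5). Rgs10 gave the smallest p of a member for nonescalating over saline, with a log2 fold change of 0.56 ± 0.35 (p = 0.117, adjusted p = 0.986), where 4.53% of genes had a p under 0.05, and 0.37 without saline library 1590 and 0.90 (p = 0.0225) without saline library 1593. In nonescalating mice, 1 month over 24 hours gave -1.09 ± 0.38 for Rgs14 (p = 0.00636, adjusted p = 0.720) and -1.11 ± 0.43 for Rgs10 (p = 0.0121, adjusted p = 0.799), where 4.64% of genes had a p under 0.05. Without library 1582 these were -0.26 (p = 0.393) and -0.13 (p = 0.705). The change of nonescalating over saline between the times was -1.25 ± 0.63 for Rgs14 (p = 0.0522, adjusted p = 0.514), where 9.80% of genes had a p under 0.05, -0.43 (p = 0.393) without library 1582, and -0.05 (p = 0.913) without libraries 1573, 1574 and 1582. For the same change of escalating over saline the smallest p was that of Rgs2, at -0.52 ± 0.33 (p = 0.118, adjusted p = 0.999), where 4.94% of genes had a p under 0.05, and leaving out library 1585 gave -0.33 (p = 0.313).

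**Figure D4:**
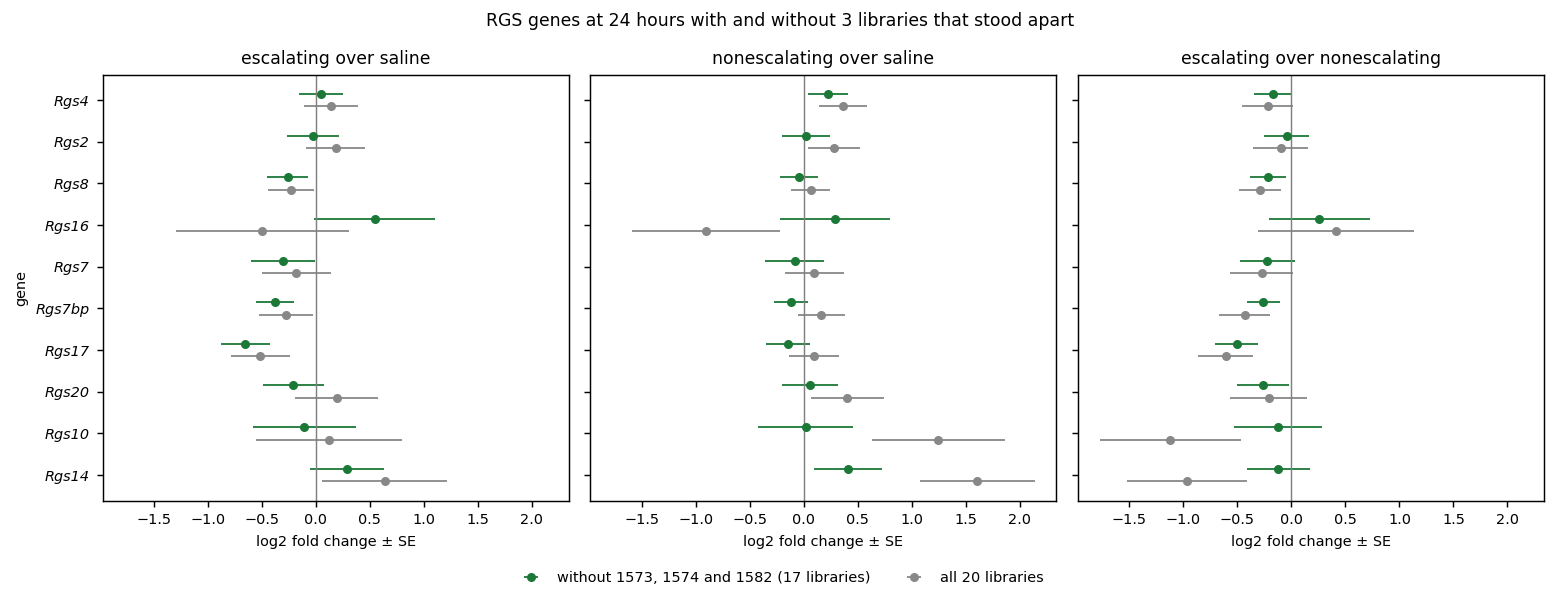
Log2 fold change ± SE of the 10 genes in the 3 comparisons at 24 hours, with all 20 libraries (grey) and without libraries 1573, 1574 and 1582 (green). Rgs14 and Rgs10 for nonescalating over saline lie at 1.61 and 1.25 with all libraries and at 0.41 and 0.02 without the 3, while Rgs17 for escalating over nonescalating lies at -0.61 and -0.51.

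For nonescalating over saline at 24 hours 9 of the 10 members had a positive log2 fold change, with a median of 0.22. Of all genes 47.6% were positive, with a median of -0.03. Without libraries 1573, 1574 and 1582, 6 of 10 members were positive, with a median of 0.02 against -0.005 over all genes. For escalating over nonescalating at 24 hours 9 of 10 were negative, with a median of -0.29 against -0.03 over all genes, and without the 3 libraries 9 of 10 were negative with a median of -0.19 against 0.01. In that fit 3 of 11 G alpha subunits, 3 of 12 G beta and gamma subunits, 5 of 15 receptors and 6 of 21 effectors were positive. Of the other RGS family genes 4 of 6 were positive, and of RGS partners 3 of 5. The negative lean was therefore not particular to the members. For escalating over saline the members' median was -0.14 at 1 month and -0.03 at 24 hours. Without the 3 libraries that 24-hour median was -0.16, with 3 of 10 positive, against 0.004 over all genes. For nonescalating over saline at 1 month the members' median was -0.02. These comparisons share libraries, and the medians are a description of the list. Summed over the 10 genes, the level at 24 hours was 1823 ± 395 CPM in escalating, 2296 ± 520 in nonescalating and 1960 ± 462 in saline libraries (SD; n = 5, 9 and 6). Without libraries 1573, 1574 and 1582 it was 1823 ± 395 CPM in escalating, 2146 ± 278 in nonescalating and 2158 ± 142 in saline libraries (n = 5, 8 and 4), so the nonescalating level was no longer above that of saline.

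Across libraries, with group means removed, the members differed in how they went together. Over 36 libraries the most alike pairs were Rgs4 with Rgs20 (Pearson r = 0.55 on log2 CPM) and Rgs2 with Rgs20 (r = 0.50), while Rgs4 with Rgs14 gave r = -0.35. Among 8582 genes, the most like Rgs20 was Arpp19 (r = 0.89 over 39 libraries, 0.79 over 36), the most like Rgs8 was Phlda1 (0.79 and 0.79), the most like Rgs7 was Eif4g2 (0.80 and 0.78) and the most like Rgs17 was Ddx6 (0.81 and 0.73). For Rgs10 the best match was Plekha6, with r = 0.69 over 39 and 0.41 over 36 libraries, and for Rgs16 it was Hdac9, with 0.81 and 0.48. These values are descriptive, since each library contributes its depth and cell makeup to every gene in it.

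Of 11 other RGS family genes, 6 passed the filter at each time. Rgs18 and Rgs21 were at 0 counts in all 39 libraries, and Rgs5, which marks pericytes, had the highest median of the 11 at 9.18 RPKM. None of those tested had an adjusted p under 0.05 in any comparison. For nonescalating over saline at 24 hours all 6 had negative log2 fold changes, with a median of -1.26, and 4 had a p under 0.05 (Rgs3, Rgs5, Rgs11 and Rgs12), where 9.97% of all genes tested did, 1091 of those 1409 genes being lower in nonescalating libraries. Rgs3, which acts on Gi and Gq, had the smallest p, with 0.109, 6.42 and 11.8 CPM (lowest, median, highest) in nonescalating and 2.96, 13.2 and 107 CPM in saline libraries (log2 fold change -2.22 ± 0.78, p = 0.00870, adjusted p = 0.298). Its saline maximum was library 1573 and those of Rgs5, Rgs11 and Rgs12 were library 1574. Without libraries 1573, 1574 and 1582, 0 of the 6 had a p under 0.05, where 6.30% of all genes did, the median was -0.27 and Rgs3 was at -0.92 ± 0.76 (p = 0.239). In that fit escalating over saline gave 1 of the 6 higher and 1 lower at a p under 0.05, where 8.91% of all genes had one. Escalating over nonescalating gave 2 of the 6 higher and 0 lower, where 5.88% of all genes had such a p. None of these had an adjusted p under 0.05.

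The rest of the pathway gave 0 calls at an adjusted p under 0.05 as well, over 11 of 11 G alpha subunits, 12 of 14 G beta and gamma subunits, 15 of 15 receptors, 21 of 21 effectors and 5 of 9 RGS partners tested. At 1 month the smallest p among effectors in both saline comparisons was that of Pde2a, a phosphodiesterase stimulated by cGMP, with log2 fold changes of 0.34 ± 0.14 for escalating over saline (p = 0.0192, adjusted p = 1.00) and 0.28 ± 0.11 for nonescalating over saline (p = 0.0184, adjusted p = 0.986). Of all genes tested at 1 month, 4.36% (escalating over saline) and 4.53% (nonescalating over saline) had a p under 0.05. Pde2a averaged 98.7 ± 6.69 RPKM in escalating, 95.2 ± 13.3 in nonescalating and 78.6 ± 10.4 in saline libraries at 1 month. At 24 hours its log2 fold changes over saline were negative without libraries 1573, 1574 and 1582. They were -0.09 ± 0.23 for escalating and -0.13 ± 0.21 for nonescalating libraries. Among receptors, the kappa opioid receptor Oprk1 was at 7.04 ± 1.53 RPKM in nonescalating and 9.48 ± 1.94 RPKM in saline libraries (log2 fold change -0.42 ± 0.18, p = 0.0230, adjusted p = 0.986). The groups overlapped for Oprk1. For Pde2a at 1 month the 4 escalating libraries (89.2 to 104 RPKM) lay above the 5 saline libraries (64.2 to 87.9 RPKM). The nonescalating libraries (68.8 to 110 RPKM) overlapped both. Pde2a was named for its smallest p among 21 effectors, and how many of all genes separate these groups was not tested.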

How the data were processed

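Per the labels, ribosome-bound RNA from accumbens nucleus was immunopurified through EGFP-Rpl10a and sequenced. The authors deposited raw counts of reads per gene, 1 file a library, and per the submitters' processing notes the tools were STAR 2.0.0e and HTSeq (version not given) on mm10; whether counting used strand is not given in the sources used here. Rows that name no gene were left out of library sizes and tests: unassigned reads without a feature were 18.7% to 70.3% and ambiguous reads 1.76% to 4.93% of a library.

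The counts were tested with edgeR 4.0.16 (quasi-likelihood, robust, TMM scaling, filterByExpr with a minimum count of 10) in R 4.3.3, separately at 24 hours (20 libraries) and at 1 month (19 libraries), and over all 39 for time and for changes between the times. P-values are two-sided and were adjusted by Benjamini-Hochberg over all genes tested, with a threshold of 0.05. Each SE was taken from the fold change and the F statistic of its test. CPM used TMM-scaled totals. RPKM divided CPM by the exon length in GENCODE vM21 (GRCm38, the same assembly as mm10). Likeness used log2 CPM with a prior count of 2.

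Library 1595 was left out, and libraries 1573, 1574 and 1582 were left out in an alternative. Other alternatives were DESeq2 1.42.0, limma voom 3.58.1, no filter, a replicate block, 1 fit of all 39 libraries, and leaving out each library. The named gene of a comparison is the member with the smallest p, with any other member at p under 0.05. The members, gene lists and marker lists were chosen with earlier results of these data known. The scripts were tested on simulated data. In 122 pairs of libraries of 1 group none differed by as little as counting noise. Some results for single genes are not reported here.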

Additional observations from a re-analysis of the deposited data

Results flagged for a closer look

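In 8 of 60 sets of values (1 gene in 1 group of 4 to 10 libraries), the highest or lowest library stood apart from the rest of its group by Dixon's test. For normal values and independent sets, chance would give about 1 in 20 sets, or 3 here. The sets share libraries and the shape of the CPM values was not tested, so the 3 is only a rough guide. Of the 8, 6 were in libraries 1573, 1574 and 1582. In nonescalating library 1582 at 24 hours Rgs14 was at 318 CPM with the next library at 75.7 CPM, Rgs10 at 176 CPM with the next at 25.2 CPM, Rgs7bp at 885 CPM with the next at 566 CPM, and Rgs16 at 0.127 CPM with the next at 5.44 CPM. In saline libraries at 24 hours Rgs16 was at 42.4 CPM in library 1574 with the next at 9.66 CPM, and Rgs7bp was at 217 CPM in library 1573 with the next at 452 CPM. The other 2 were Rgs17 in escalating library 1585 at 24 hours, at 272 CPM with the next at 180 CPM, and Rgs4 in saline library 1594 at 1 month, at 425 CPM with the next at 351 CPM. Libraries 1573, 1574 and 1582 also had the highest shares of reads without a feature, at 70.3%, 51.1% and 40.4%. Escalating 24-hour library 1589 was close to the last of these, at 40.2%. Of the 36 other libraries it had the lowest summed D1 markers, at 1357 CPM, and the highest summed vascular markers, at 2220 CPM. Library 1589 was not among those left out together. What set libraries 1573, 1574 and 1582 apart was not tested.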

How the results depend on the processing

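Over 423 alternative values of the count of members called, 351 of them leaving out 1 library, 0 of the 10 genes reached an adjusted p under 0.05 in any of the 12 comparisons. The smallest adjusted p of a member was 0.0699, for Rgs14 in nonescalating over saline at 24 hours with all 39 libraries in 1 fit (log2 fold change 1.60). Counts over all genes moved more: DESeq2 called 164 genes for that comparison and 583 for time in saline, and the fit of all 39 libraries called 129 for the first, against 0 by edgeR in the fits reported. For time in saline, edgeR called up to 99 genes when 1 library was left out. Among the members with the smallest p in a comparison, 1 direction turned: Rgs16 in escalating over nonescalating at 1 month ranged between -0.038 and 0.95 when each library was left out, with the negative value without library 1607. Among all 10 members, leaving out libraries 1573, 1574 and 1582 turned the direction of 4 in escalating over saline and 5 in nonescalating over saline at 24 hours, and of 0 to 3 in each of the 7 other comparisons it bears on. With the replicate number as a block, 0 members were called and Rgs14 in nonescalating over saline at 24 hours was at 1.31 (p = 0.0124). The numbers share no stated animal or batch, so the libraries were not treated as paired. Of 42 same-numbered pairs 11 had a correlation of deviations over 0.1. That count cannot decide on pairing, since pairs with different numbers were not compared. Leaving out libraries 1573, 1574 and 1582 does not apply within 1 month, and adding library 1595 does not apply within 24 hours. Standard errors of the members' log2 fold changes ran from 0.11 to 1.02, which limits what these group sizes could detect.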
